A study of Mus musculus with 12 samples.

Results

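The interferon-stimulated genes examined here are 33 genes chosen by symbol, all of which were found among the 55536 genes of the deposited count table. They cover the ISG15 system (3 genes), nucleic acid sensors (4), Ifit proteins (3), Mx GTPases (2), oligoadenylate synthetases (5), transcription factors (4), guanylate-binding proteins (4) and other effectors (8). Their RNA was described in 11 mouse tumours and 1 skeletal muscle. The tumours model clear cell sarcoma, a soft tissue sarcoma driven by a fusion of EWSR1 with ATF1. In 5 translocation tumours (HprtCre; Ewsr1-loxP; Atf1-loxP) Cre from the Hprt locus acts on loxP sites placed in Ewsr1 and in Atf1, so that the fusion arises at the native genes. In 6 Rosa26 tumours (Rosa26-LSL-EWSR1-ATF1) a fusion cDNA lies at the Rosa26 locus behind a stop cassette that Cre removes, and the source of Cre is not given in the sources used here. The muscle carried the WT genotype. The labels state that no drug treatment was used, and they do not give strain, age or sex. The titles of translocation tumours 2 and 5 share a number, as do those of translocation tumour 1 and the muscle. What that number stands for is not given in the sources used here, nor which tumours are from different animals, and p-values then speak only of the spread among these libraries, part of which may be technical.

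Interferons are secreted proteins that signal to neighbouring cells through paired receptors and the Jak kinases. Type I and type III interferons activate a complex containing Stat2 and Irf9 that binds the interferon-stimulated response element (ISRE), while the response to interferon gamma, released mainly by T and NK cells, acts through the gamma-activated sequence (GAS). The genes switched on in this way sense viral nucleic acids, block viral replication, or amplify the response, and in tumours they are expressed both by malignant cells and by infiltrating immune cells. In bulk samples such as these, fewer cells of a type and less RNA per cell cannot be told apart.

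The promoters of many of these genes shared the ISRE, a property that the choice of genes did not use directly. RefSeq promoter windows on GRCm38.p6, from 250 bases before to 50 bases after the transcription start, matched 26 of the 33 genes by symbol. No window was matched for Usp18, Zbp1, Mx1, Mx2, Oas2, Rtp4 and Parp14. The letters GAAANNGAAA, searched on both strands, were found in the windows of 15 of 26 genes (57.7%), against 3.99% of 27025 genes with a window. The palindromic letters TTCNNNGAA of the GAS were found in 8 of 26 (30.8%), against 9.55% of all genes. The ISRE genes were Isg15, Ifih1, Ddx58, Eif2ak2, Ifit1, Ifit3, Oas1a, Oas3, Stat2, Gbp2, Gbp3, Gbp5, Gbp7, Rsad2 and Bst2. A match describes the letters in the window and is not evidence of binding. The windows of 4 genes whose levels are given tumour by tumour below are shown 5′ to 3′ on the strand of the gene, with the ISRE letters, here in the orientation TTTCNNTTTC, in capitals. Ddx58 lies at chr4:40239776-40240075 on the minus strand, Gbp5 at chr3:142496684-142496983, Gbp7 at chr3:142530086-142530385 and Stat2 at chr10:128270248-128270547, all on the plus strand.
Ddx58: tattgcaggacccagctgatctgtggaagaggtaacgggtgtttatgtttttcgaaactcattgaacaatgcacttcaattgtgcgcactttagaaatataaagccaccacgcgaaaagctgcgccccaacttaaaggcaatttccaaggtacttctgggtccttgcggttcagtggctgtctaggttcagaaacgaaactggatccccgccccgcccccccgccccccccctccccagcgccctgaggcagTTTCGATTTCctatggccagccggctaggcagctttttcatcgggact
Gbp5: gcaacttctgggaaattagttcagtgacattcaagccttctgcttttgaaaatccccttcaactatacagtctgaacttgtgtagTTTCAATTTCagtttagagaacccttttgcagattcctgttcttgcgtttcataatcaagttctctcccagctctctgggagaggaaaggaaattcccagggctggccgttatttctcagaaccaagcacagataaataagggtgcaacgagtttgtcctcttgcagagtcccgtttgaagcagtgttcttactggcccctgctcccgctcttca
Gbp7: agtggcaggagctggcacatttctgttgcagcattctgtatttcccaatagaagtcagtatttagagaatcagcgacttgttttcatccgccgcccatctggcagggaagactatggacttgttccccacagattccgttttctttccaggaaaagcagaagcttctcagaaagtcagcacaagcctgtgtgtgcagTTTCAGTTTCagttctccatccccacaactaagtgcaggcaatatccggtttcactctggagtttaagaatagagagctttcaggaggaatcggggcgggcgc
Stat2: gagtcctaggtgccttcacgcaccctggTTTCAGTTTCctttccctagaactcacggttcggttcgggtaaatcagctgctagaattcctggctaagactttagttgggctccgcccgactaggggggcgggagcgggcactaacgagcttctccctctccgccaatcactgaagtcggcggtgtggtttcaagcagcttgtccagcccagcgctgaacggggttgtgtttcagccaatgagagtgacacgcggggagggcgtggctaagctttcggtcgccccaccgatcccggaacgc
The match began 2 bases after the annotated start in Ddx58, and 165, 53 and 222 bases before it in Gbp5, Gbp7 and Stat2. The Gbp5 and Gbp7 windows each also held 2 GAS matches, and the Ddx58 and Stat2 windows held 0.

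Depth set how well each gene was measured. Total counts ran from 2963088 to 21248636 in the translocation tumours and from 6817005 to 21493629 in the Rosa26 tumours, and reached 25037628 in the muscle. The shallowest library, translocation tumour 2, gave 1541 counts to all 33 genes together. Taking 3 counts as the limit, a count of 0 there allows up to 1.01 CPM (counts-per-million of the library). After the scaling used for the levels below it allows up to 1.49 CPM. Such limits cover counting error only. Ribosomal sequence made up 37.8% of translocation tumour 2 and 30.0% of Rosa26 tumour 4. Of the 33 genes, 4 overlap another gene model on the same strand (Irf9, Gbp7, Rtp4 and Parp14) and 9 overlap one on the other strand. Translocation tumour 5 stood apart from the other translocation tumours. Its summed fibroblast markers were at 229 CPM against 2060 to 23800 CPM in the other 4, and its macrophage markers at 381 CPM against 1020 to 2890 CPM. Its summed melanocyte markers were at 514 CPM against 10.6 to 45.0 CPM, but nearly all of that sum came from Dct (332 CPM) and Mitf (180 CPM). The other melanocyte markers did not follow. Sox10 was at 0.103 CPM, Pmel, at 0.927 CPM, was below the other 4, and Tyr, Tyrp1 and Mlana had no count. By Xist and Y-linked genes, translocation tumours 1 to 4 and Rosa26 tumours 1 and 4 were female, and translocation tumour 5 and the other Rosa26 tumours male. Translocation tumours 2 and 5, whose titles share a number, thus differed in sex and by this reading were not from 1 animal. Results are given with and without translocation tumour 5. Levels are in CPM after TMM scaling of the 11 tumours, and fold changes are translocation over Rosa26 unless stated otherwise.

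Most interferon-stimulated genes had lower mean levels in the translocation tumours, but for few of them was the difference larger than the spread between tumours. The log2 fold change was negative for 29 of 33 genes (87.9%, beside 46.8% of all 17021 genes tested), with a median of -0.60 over the 33 genes and 0.07 over all genes. By the quasi-likelihood test of edgeR, adjusted over all genes after Benjamini and Hochberg with a threshold of 0.05, 1 of 33 genes was called lower, Ddx58, where 1.56% of all genes tested were called lower. None was called higher (0 of 33, background 1.14%). At an unadjusted p under 0.05, 4 genes were lower (Ddx58, Oasl2, Gbp5 and Gbp7), a share of 12.1% beside 10.4% of all genes, and 0 were higher, beside 14.3%. The genotypes did not overlap in any tumour for 2 of 33 genes, Ddx58 and Oasl2, both lower in translocation (2.73% of all genes). No gene was non-overlapping and higher (0 of 33, background 2.44%). These shares of called and non-overlapping genes rest on 1 to 4 genes, lie near the background and are not a result about the list. All 33 genes passed the filter on low counts.

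Without translocation tumour 5, 2 genes were called lower, Ddx58 and Oasl2, where 2.59% of 17433 genes were called lower, and 0 were called higher (1.68%). The fold change was then negative for 26 genes (50.2% of all genes), with a median of -0.47. The same 2 genes did not overlap between genotypes (background 4.04%), and 0 were non-overlapping and higher (background 3.4%). Unadjusted p-values under 0.05 were then found for 3 genes lower, which no longer included Gbp7 (12% of all genes), and for 1 gene higher, Ifi35 (11.1%). The guanylate-binding proteins had the lowest median of the role groups in both fits, at -1.14 with all 11 tumours and -0.89 in 10. The oligoadenylate synthetases followed at -0.98 and -0.64 and the other effectors at -0.62 and -0.61.

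**Figure D1:**
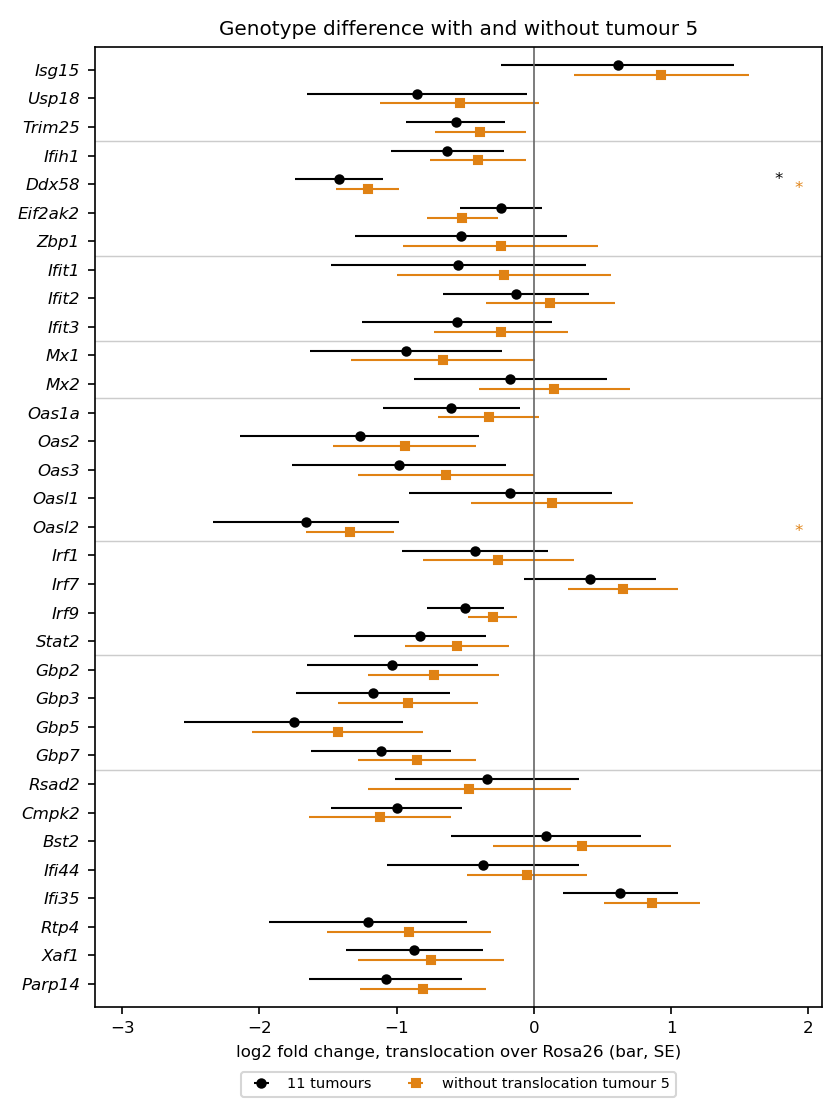
Log2 fold change of each gene, translocation over Rosa26, with its standard error, from all 11 tumours (black) and without translocation tumour 5 (orange); horizontal lines separate role groups and asterisks mark an adjusted p under 0.05. Most points lie left of 0, and only Ddx58 in both fits and Oasl2 in the orange fit carry an asterisk.

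The nucleic acid sensors held the gene with the clearest difference. Ddx58 (chr4:40203773-40239828, mm10) encodes RIG-I, the cytosolic sensor of short double-stranded viral RNA with a triphosphate end. It stood at 19.3, 13.9, 12, 20.4 and 5.61 CPM in translocation tumours 1 to 5, and at 30.2 CPM in the lowest, 37.3 CPM in the median and 49.7 CPM in the highest Rosa26 tumour. Every translocation tumour therefore lay below every Rosa26 tumour, with or without tumour 5. The means were 14.2 ± 6.0 CPM (SD, n = 5) and 38.1 ± 7.09 CPM (SD, n = 6). On the log2 scale the difference was -1.42 (SE 0.32), with an edgeR adjusted p of 0.0428. Without tumour 5 it was -1.21 (SE 0.23, edgeR adjusted p = 0.021). The call is close to the threshold: of 11 fits that each left out 1 tumour it held in 2, without translocation tumour 4 or without translocation tumour 5, and was lost without any other single tumour, with adjusted p between 0.021 and 0.106. The log2 fold change in those fits stayed between -1.59 and -1.21.

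Ifih1, which encodes the long double-stranded RNA sensor MDA5, was at 16.4, 8.91, 9.58, 15.9 and 4.02 CPM in translocation tumours 1 to 5 and at 7.86, 16.2 and 29.8 CPM (lowest, median and highest) in the Rosa26 tumours. Its groups overlapped, and its log2 fold change of -0.63 (SE 0.41) had an edgeR adjusted p of 0.365. Eif2ak2, the double-stranded RNA-activated kinase PKR that halts translation, stood apart in 1 tumour. Its values were 35.9, 20.3, 21.6, 21.2 and 51.0 CPM in translocation tumours 1 to 5 and 25.5, 33.2 and 48.6 CPM (lowest, median and highest) in the Rosa26 tumours. Translocation tumour 5 was thus the highest of all 11 tumours for Eif2ak2, and was the highest for no other member. The log2 fold change was -0.24 (SE 0.30) with tumour 5 and -0.52 (SE 0.26) without it, with edgeR adjusted p of 0.663 and 0.253. Zbp1, a sensor of Z-form nucleic acids, ranged from 0.875 to 14.3 CPM in translocation and from 3.25 to 24.6 CPM in Rosa26 tumours.

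Among the oligoadenylate synthetases, a family whose active enzymes make the second messenger that activates RNase L, Oasl2 separated the genotypes. Oasl2 (chr5:114896936-114912234, mm10) is a synthetase-like protein with ubiquitin-like domains. It stood at 17.7, 20.3, 7.82, 21.4 and 0.309 CPM in translocation tumours 1 to 5, and at 30.9, 41.4 and 64.4 CPM (lowest, median and highest) in the Rosa26 tumours. All 5 translocation values lay below the lowest Rosa26 value, and tumour 5 lay far below the other 4 with 6 counts. With means of 13.5 ± 9.13 CPM (SD, n = 5) and 42.3 ± 12.1 CPM (SD, n = 6), the log2 fold change was -1.66 (SE 0.68), which did not pass the test (edgeR adjusted p = 0.16). Without tumour 5 it was -1.34 (SE 0.32) and passed (edgeR adjusted p = 0.0425), the smaller difference having the smaller error. It passed in no other fit that left out 1 tumour.

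Oas2 was at 3.33, 6.44, 4.42, 2.7 and 0 CPM in translocation tumours 1 to 5, the last from 0 counts, and at 2.14, 7.56 and 15.8 CPM (lowest, median and highest) in the Rosa26 tumours. The 0 counts in tumour 5 allow up to 0.155 CPM. Oas3 was low throughout, at 2.79, 1.49, 0.530, 0.900 and 0.0515 CPM in translocation tumours and at 0.513, 1.86 and 4.00 CPM (lowest, median and highest) in Rosa26 tumours. For both genes the genotypes overlapped, and neither passed the test, with or without tumour 5. Oas1a ran from 0.618 to 4.51 CPM in translocation and from 2.82 to 7.62 CPM in Rosa26 tumours, and Oasl1, the neighbour of Oasl2 on chromosome 5, from 0.618 to 26.2 CPM and from 5.56 to 15.6 CPM. Oas1a shares sequence with its tandem copies: Oas1g received 194 counts over the 11 tumours beside 621 for Oas1a, and reads of one may have been counted for the other.

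The guanylate-binding proteins, interferon-induced GTPases that coat vacuoles of intracellular pathogens, had high levels in Rosa26 tumours 1 and 4. Gbp5, a promoter of inflammasome assembly, was at 7.73, 5.45, 4.42, 3.15 and 0.154 CPM in translocation tumours 1 to 5 and at 3.42, 7.92 and 30.5 CPM (lowest, median and highest) in the Rosa26 tumours. Rosa26 tumours 1 and 4 stood at 26.9 and 30.5 CPM, above the other 4 at 3.42 to 8.44 CPM, which overlapped the translocation tumours. The log2 fold change was -1.75 (SE 0.80, edgeR adjusted p = 0.20). Gbp7 was at 26.3, 18.8, 13.9, 17.9 and 3.76 CPM in translocation tumours and at 13.2, 31.6 and 73.8 CPM (lowest, median and highest) in Rosa26 tumours, the highest being Rosa26 tumour 1. Its groups overlapped as well (log2 fold change -1.11, SE 0.51, edgeR adjusted p = 0.202). Gbp2 at 51.2 and 71.7 CPM and Gbp3 at 33 and 38.5 CPM were likewise highest in Rosa26 tumours 1 and 4, with 24.9 and 11.3 CPM the highest values of the other Rosa26 tumours. These 4 genes lie in one cluster on chromosome 3 and are close in sequence, so that reads may be shared between them.

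**Figure D2:**
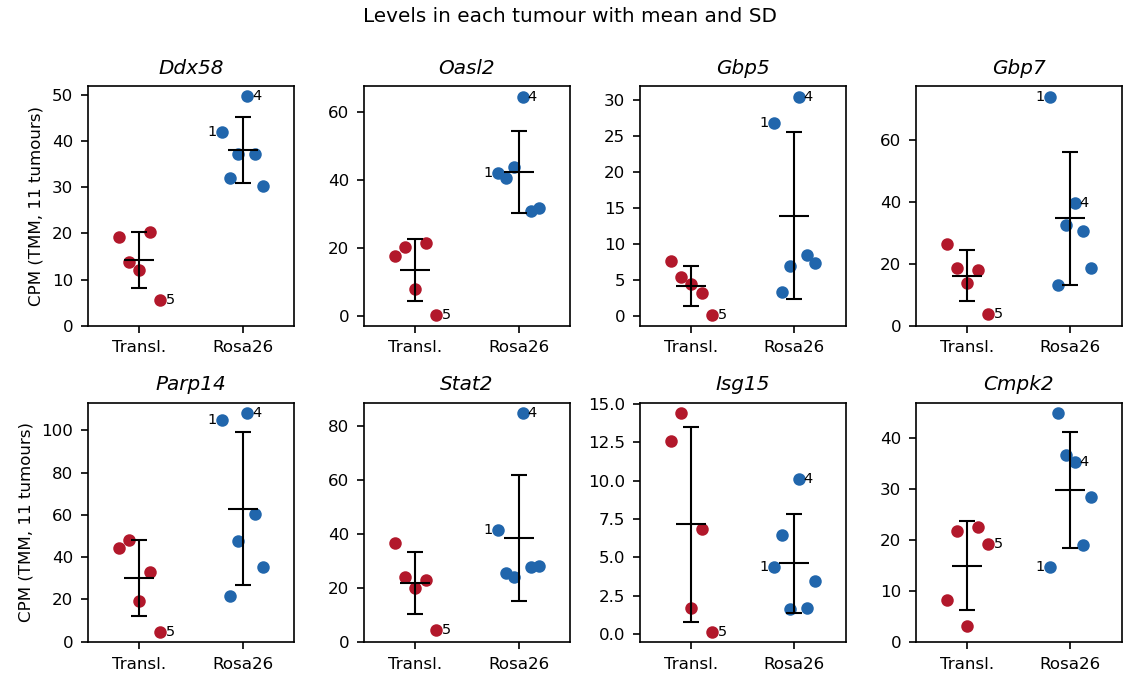
TMM-scaled CPM of 8 members in each translocation tumour (red) and Rosa26 tumour (blue), with the mean and SD in black; numbers mark translocation tumour 5 and Rosa26 tumours 1 and 4. The genotypes do not overlap for Ddx58 and Oasl2, Rosa26 tumours 1 and 4 lie above the others for Gbp5 and Parp14, and translocation tumour 5 is lowest except for Cmpk2.

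The transcription factors that carry the signal included the gene with the narrowest range. Irf9, the DNA-binding subunit of the complex that recognises the ISRE, was at 26.9, 25.7, 22.7, 24.6 and 9.32 CPM in translocation tumours 1 to 5 and at 26.6, 29.7 and 37.0 CPM (lowest, median and highest) in Rosa26 tumours. Apart from tumour 5, the highest Irf9 level was 1.63 times the lowest, the narrowest range of the genes compared in this way. Stat2, its partner, was at 36.6, 24.3, 20.2, 23.1 and 4.69 CPM in translocation tumours and at 24.1, 28.0 and 84.6 CPM (lowest, median and highest) in Rosa26 tumours, with Rosa26 tumour 4 at the top. Neither passed the test (edgeR adjusted p = 0.285 and 0.31). Irf1, the factor most directly induced by interferon gamma, ran from 20.8 to 57.3 CPM in translocation tumours and reached 136 CPM in Rosa26 tumour 4 and 87.0 CPM in Rosa26 tumour 1, beside at most 28.9 CPM in the other Rosa26 tumours. Irf7, the amplifier of interferon alpha production, had a positive log2 fold change of 0.41 (SE 0.48). Irf9 overlaps Rnf31 on the same strand and Irf7 overlaps Phrf1 on the other strand, and whether the counting used strand is not given in the sources used here.

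In the ISG15 system a ubiquitin-like protein is attached to targets. Isg15, the modifier itself, was at 12.6, 14.4, 1.72, 6.86 and 0.154 CPM in translocation tumours 1 to 5 and at 1.63, 3.90 and 10.1 CPM (lowest, median and highest) in Rosa26 tumours, and its log2 fold change was positive (0.61, SE 0.85), with an edgeR adjusted p of 0.697. Usp18, the protease that removes Isg15 and also dampens receptor signalling, was at 8.16, 13.4, 1.68, 19.8 and 0.206 CPM in translocation tumours and at 10.2, 11.7 and 32.5 CPM (lowest, median and highest) in Rosa26 tumours. Trim25, a ubiquitin ligase that activates RIG-I, was at 72.9, 87.1, 24.9, 42.9 and 23.6 CPM in translocation tumours and at 51.8, 74.8 and 91.5 CPM (lowest, median and highest) in Rosa26 tumours. All 3 were low in both translocation tumours 3 and 5, and none passed the test (edgeR adjusted p from 0.347 to 0.697).

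The Ifit proteins, which bind viral RNA lacking host cap methylation, split in translocation tumour 3. Ifit3 was at 4.19, 1.49, 8.61, 3.49 and 0.206 CPM in translocation tumours 1 to 5 and at 3.18, 4.55 and 11.1 CPM (lowest, median and highest) in Rosa26 tumours. Ifit1 was at 12.7, 17.8, 3.58, 2.53 and 0.154 CPM in translocation tumours and at 2.69, 5.18 and 33.9 CPM (lowest, median and highest) in Rosa26 tumours. Ifit2 was highest of all 11 tumours in translocation tumour 3, at 15.5 CPM, where most other members were low. The genotypes overlapped for all 3, with log2 fold changes of -0.56 (SE 0.69), -0.55 (SE 0.93) and -0.13 (SE 0.53) for Ifit3, Ifit1 and Ifit2. The near copy Ifit3b received 212 counts over the tumours beside 767 for Ifit3, so these values may mix the pair.

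The Mx GTPases, which trap viral nucleocapsids, were low. Mx1 was at 6.23, 2.97, 1.41, 1.52 and 0.618 CPM in translocation tumours 1 to 5 and at 1.2, 3.89 and 11.1 CPM (lowest, median and highest) in Rosa26 tumours. Mx2 was at 3.44, 5.45, 1.06, 1.52 and 0.154 CPM in translocation tumours and at 1.19, 2.09 and 4.19 CPM (lowest, median and highest) in Rosa26 tumours. The genotypes overlapped for both (log2 fold changes -0.93, SE 0.70, and -0.17, SE 0.70).

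Of the other effectors, Parp14, an ADP-ribosyltransferase, was at 44.5, 48.0, 19.1, 33.1 and 4.74 CPM in translocation tumours 1 to 5 and at 21.5, 53.8 and 108 CPM (lowest, median and highest) in Rosa26 tumours. Cmpk2, a mitochondrial nucleotide kinase, was at 8.27, 21.8, 3.18, 22.7 and 19.3 CPM in translocation tumours and at 14.7, 31.8 and 44.9 CPM (lowest, median and highest) in Rosa26 tumours. Rsad2, which encodes viperin, the enzyme that makes a chain-terminating nucleotide, was at 50.2, 34.7, 3.18, 5.40 and 32.8 CPM in translocation tumours and at 11.7, 22.9 and 65.4 CPM (lowest, median and highest) in Rosa26 tumours. Cmpk2 and Rsad2 are neighbours in opposite orientation on chromosome 12 (chr12:26469204-26479837 and chr12:26442746-26456452, mm10). Both were highest in Rosa26 tumour 2, both were lowest in translocation tumour 3, and translocation tumour 5 was at 64.7% and 103% of the Rosa26 mean for Cmpk2 and Rsad2, where it was at 7.53% for Parp14. None of the 3 passed the test (edgeR adjusted p = 0.257, 0.222 and 0.794 for Parp14, Cmpk2 and Rsad2).

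Bst2, the tethering factor that holds budding virions at the cell surface, ran from 9.22 to 150 CPM in translocation and from 17.9 to 122 CPM in Rosa26 tumours. Per kilobase of exon it had the highest level of the 33 genes in both genotypes, at 54.2 ± 63.7 CPM per kb (SD, n = 5) in translocation and 50.3 ± 42.6 CPM per kb (SD, n = 6) in Rosa26 tumours, and Oas3 the lowest, at 0.163 ± 0.149 and 0.310 ± 0.184 CPM per kb. Ifi35, a partner of the signalling protein Nmi, had a positive log2 fold change, 0.63 (SE 0.42) with and 0.86 (SE 0.35) without tumour 5, and did not pass the test (edgeR adjusted p = 0.382 and 0.171). Ifi44, a gene of uncertain function, ran from 0.103 to 5.94 CPM in translocation and from 2.99 to 6.48 CPM in Rosa26 tumours. Rtp4, a chaperone-like factor, ran from 0 to 5.62 CPM and from 3.93 to 6.97 CPM. Xaf1, a pro-apoptotic zinc finger protein, ran from 6.49 to 12.1 CPM and from 6.19 to 48.8 CPM. The genotypes overlapped for all 5.

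Across tumours, the largest departures were in single tumours rather than between genotypes. Translocation tumour 5 had the lowest CPM of all 11 tumours for 28 of 33 genes, where it was lowest for 26.6% of all 17021 genes tested. Its exceptions were Eif2ak2, Rsad2, Cmpk2, Rtp4 and Xaf1. Rtp4 was low in it too, at 0.309 CPM from 6 counts. Only translocation tumour 2 was lower for Rtp4, with 0 counts, which allow up to 1.49 CPM there. Of the 28 lowest values some rested on few counts in a library of 21248636 counts. These were 3 counts each for Isg15, Ifit1, Mx2 and Gbp5, 4 each for Usp18 and Ifit3, 2 for Ifi44, 1 for Oas3 and 0 for Oas2. Others were well covered, such as Trim25 with 458 counts, Irf1 with 404 and Ddx58 with 109. The mean z-score of the 33 genes (log2 CPM of each gene centred and scaled over the tumours) was -1.87 in translocation tumour 5, next lowest at -0.58 in translocation tumour 3. Translocation tumour 5 was below its gene mean for all but 3 genes. Its summed leukocyte markers were at 37.6 CPM, the lowest of the 11 tumours, beside 91.5 to 151 CPM in the other translocation tumours and 67.5 to 621 CPM in the Rosa26 tumours. Of 12 T and NK cell markers, Cd3d, Cd8b1 and Trac had no count in it, and the summed level was 3.71 CPM, beside 9.48 to 109 CPM in the other 10 (1.91 CPM without Cd4, beside 3.62 to 94.8 CPM). The part of these cells in the low values was not tested.

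**Figure D3:**
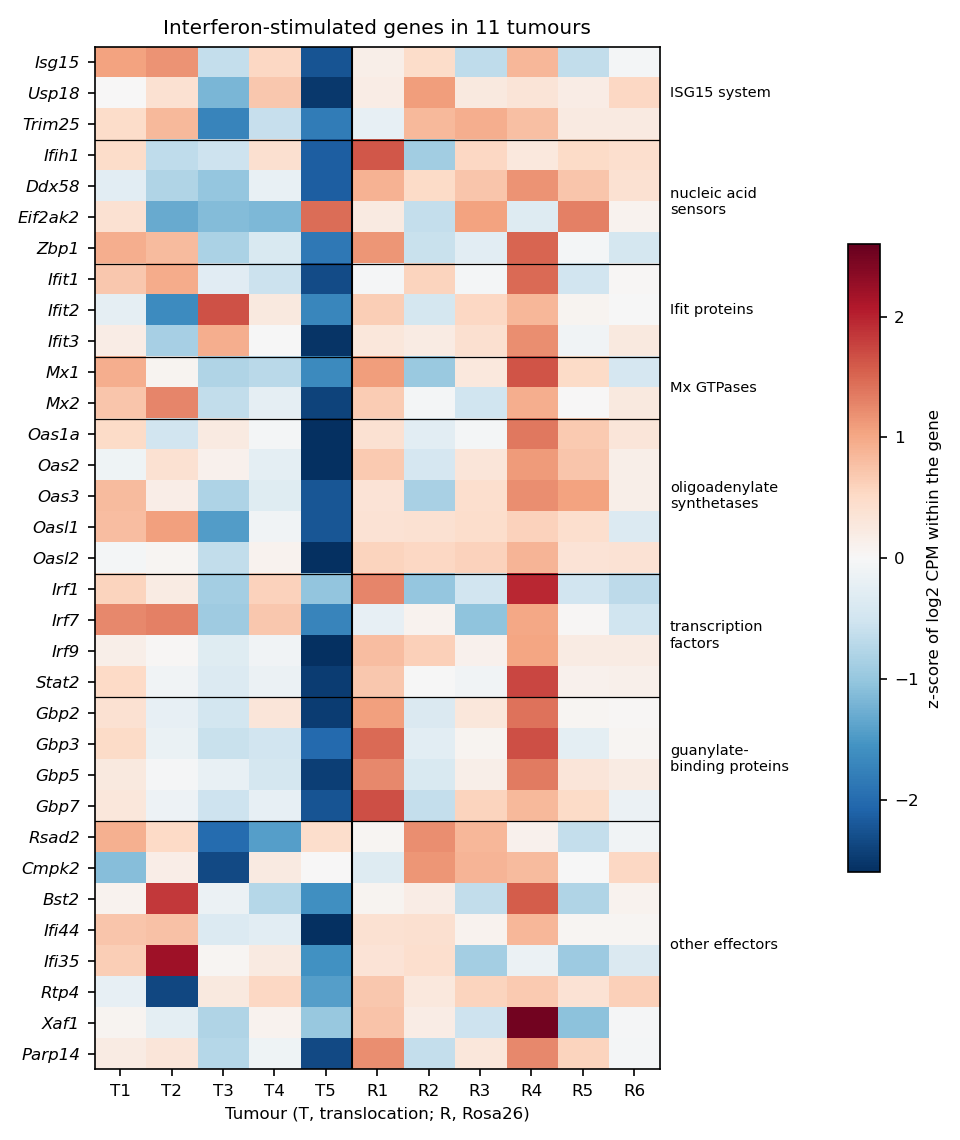
Z-score of log2 CPM of each gene over the 11 tumours, with translocation tumours (T1 to T5) left and Rosa26 tumours (R1 to R6) right of the vertical line. T5 is blue in nearly all genes apart from Eif2ak2, Rsad2 and Cmpk2, and R4 is red in most, with R1 red in the guanylate-binding proteins.

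Rosa26 tumour 4 was at the other end, with the highest CPM of the 11 tumours for 18 of 33 genes (14.5% of all genes tested) and a mean z-score of 1.05. Rosa26 tumour 1 was highest for 3 genes, Ifih1, Gbp7 and Rtp4 (11.4% of all genes), and above the gene mean for 29. Translocation tumour 2 was highest for 6 genes, Isg15, Mx2, Oasl1, Irf7, Bst2 and Ifi35 (10.7% of all genes), of which Mx2 rested on 11 counts and Isg15 on 29. Rosa26 tumours 1 and 4 also had the highest sums of T and NK cell markers, at 109 and 50.9 CPM, beside 9.48 to 30.2 CPM in the other Rosa26 tumours. Without Cd4 they stood at 94.8 and 33.4 CPM, and translocation tumour 1, at 34.2 CPM, was as high as Rosa26 tumour 4. The sums of dendritic cell markers were also highest in Rosa26 tumours 1 and 4, at 86.5 and 141 CPM, of which Itgax gave 29.0 and 91.5 CPM. Itgax and Ccr7 were highest in these tumours, Clec9a in Rosa26 tumour 1 and Zbtb46 in Rosa26 tumour 4. Flt3 was highest in translocation tumour 4, at 27.2 CPM, and Xcr1 in Rosa26 tumour 5, at 5.09 CPM. Macrophage marker sums were not highest in Rosa26 tumours 1 and 4. At 733 and 1080 CPM they lay within the range of the other Rosa26 tumours or below it (905 to 2270 CPM). Both tumours were female, and Rosa26 tumour 4 had a high share of ribosomal sequence, 30.0%. The part of these cells and of RNA composition in the high values was not tested.

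**Figure D4:**
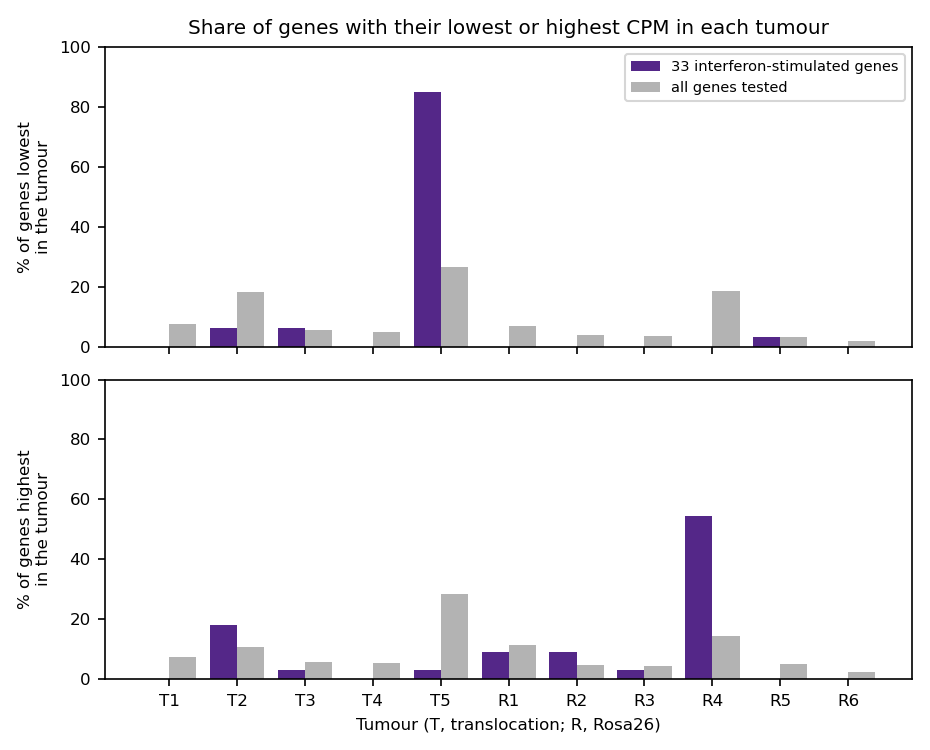
Share of the 33 genes (purple) and of all genes tested (grey) that had their lowest (top) or highest (bottom) CPM in each of the 11 tumours, in percent. T5 holds the lowest value of 28 of the 33 genes and R4 the highest value of 18, both above the grey bars.

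With translocation tumour 5 set aside, translocation tumour 3 became the lowest of 10 tumours for 15 of 33 genes (9.37% of 17433 genes), among them Usp18, Trim25, Ddx58, Oasl1, Oasl2, Stat2, Irf9, Rsad2 and Cmpk2. The library of translocation tumour 3 was deep, with 19914053 counts, and its macrophage markers, at 1020 CPM, were the lowest of the other 4 translocation tumours. Its T and NK cell markers stood at 26.9 CPM, of which Cd4 gave 23.3 CPM. The other 11 genes of that list summed to 3.62 CPM, beside 34.2, 9.41 and 17.9 CPM in translocation tumours 1, 2 and 4. The ratio of the highest to the lowest tumour without tumour 5 ran from 1.63 for Irf9 to 20.6 for Rsad2, among the genes whose lowest tumour had more than 3 counts.

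Sex was split unevenly between genotypes, with 4 females and 1 male in translocation and 2 females and 4 males in Rosa26. Within females, Ddx58 ranged from 12 to 20.4 CPM in 4 translocation tumours and stood at 42.0 and 49.7 CPM in 2 Rosa26 tumours. Within males, it was 5.61 CPM in translocation tumour 5 and 30.2 to 37.3 CPM in 4 Rosa26 tumours. Oasl2 was at 7.82 to 21.4 against 42.1 and 64.4 CPM in females and at 0.309 against 30.9 to 43.8 CPM in males. Neither gene overlapped over all 11 tumours, so their separation within each sex was fixed in advance and is not a further check. Within females, 15 of 33 genes (45.5%) did not overlap and were lower in translocation (11.8% of all genes), and 0 were non-overlapping and higher (11.9%), a count made after the data were seen. The 2 Rosa26 females are tumours 1 and 4, whose mean z-scores of the 33 genes, 0.61 and 1.05, were the highest of the 11 tumours. The count is therefore not independent of those high levels. The 15 genes were Ddx58, Zbp1, Mx1, Oas2, Oasl2, Irf1, Irf9, Stat2, Rtp4, Xaf1, Parp14 and all 4 guanylate-binding proteins. Gbp3, for example, was at 6.89 to 15.6 CPM in translocation and at 33 and 38.5 CPM in Rosa26 females, and at 2.21 against 8.72 to 11.3 CPM in males.

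A fit with sex as a covariate called 10 of the 33 genes lower by edgeR's quasi-likelihood test, namely Ddx58, Oasl2, Irf9, Stat2, Gbp2, Gbp3, Gbp5, Gbp7, Xaf1 and Parp14 (5.78% of all genes tested were called lower), and 0 higher (9.11%). In that fit, the log2 fold change of Gbp5 was -3.21 (edgeR adjusted p = 0.012) and that of Stat2 -1.69 (edgeR adjusted p = 0.0154). The only male translocation tumour in it is tumour 5. The same fit without tumour 5, added after the data were seen, compares genotypes through females only and called 3 genes lower, Ddx58, Gbp3 and Gbp5 (0.694% of all genes), and 0 higher (0.126%). The Rosa26 females in it are tumours 1 and 4, which had high T and NK cell markers, so sex, these 2 tumours and their immune markers cannot be told apart.

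The muscle served as a tissue without the fusion. It is 1 library, so differences from it have no replicate check. CPM were scaled over all 12 libraries here, and a gene was counted as past 2-fold when every tumour of a genotype lay on one side of the muscle and the mean differed by at least 2-fold. All 33 genes passed the filter, with summed counts of 1292 in the muscle, 0.00516% of its total, against 0.0200% to 0.0983% in the tumours. In the Rosa26 tumours 31 genes were past 2-fold higher (32.2% of 22184 genes), all but Ifih1 and Ifi35, and 0 were lower (23.3%). In the translocation tumours 15 were higher (20.7%) and 0 lower (19.1%), and without tumour 5 there were 24 higher (26.7%) and 0 lower (22.6%). Translocation tumour 5 lay below the muscle for 17 of 33 genes on this scale, and no share over all genes was taken beside it. Some of these rest on few counts and on the scaling. Isg15 had 3 counts in each of the 2 libraries, and Oasl2 had 6 in tumour 5 and 5 in the muscle. Before scaling, the 33 genes made up 0.0200% of the counts of tumour 5, above the 0.00516% of the muscle.

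Some members were hardly found in muscle. Zbp1, Mx1 and Oas3 had 0 counts in the muscle, which allows up to 0.293 CPM each on this scale (3 counts). Against that limit, the Rosa26 means were at least 31.1-fold higher for Zbp1, at least 15.3-fold higher for Mx1 and at least 6.97-fold higher for Oas3. Oasl2, with 5 counts in the muscle (0.488 CPM), averaged 12.2 ± 8.22 CPM (SD, n = 5) in translocation and 39.3 ± 10.9 CPM (SD, n = 6) in Rosa26 tumours on this scale. Ddx58 was at 3.81 CPM in the muscle, below all 11 tumours, the nearest being translocation tumour 5 at 5.07 CPM. Ifih1, at 8.79 CPM in the muscle, and Ifi35, at 14.3 CPM, lay within the range of both tumour groups. Rosa26 tumour 1 held 4.8% of its counts in skeletal muscle markers, beside 12.7% in the muscle itself and at most 0.299% in the other tumours.

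**Figure D5:**
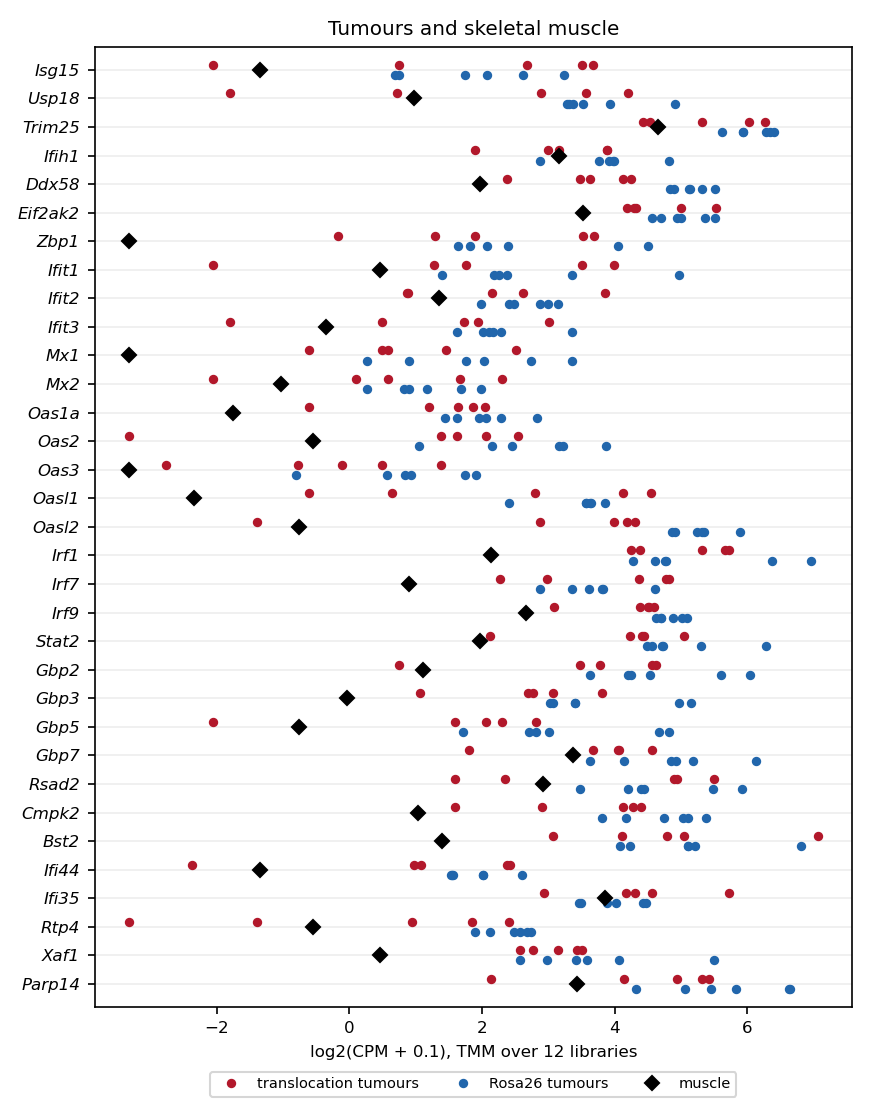
Level of each gene, log2 of CPM plus 0.1 on the scale of 12 libraries, in translocation tumours (red), Rosa26 tumours (blue) and the muscle (black diamond). Nearly all blue points lie right of the diamond, and for 17 genes, among them Usp18, Ifit1 and Gbp7, the red points left of it include translocation tumour 5. Some of the 17 rest on few counts in both libraries and depend on the scaling.

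The ligands that start the pathway were barely detected. Of 21 interferon genes, 0 passed the filter on low counts and 15 had 0 counts in all 11 tumours. Ifng, which encodes interferon gamma, had the most, 44 counts over the 11 tumours, of which 19 lay in Rosa26 tumour 1. Ifnb1, the first type I interferon made after infection, had 1 count. At this depth a difference in ligand RNA between genotypes was not detectable.

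The receptors were detected, and 5 of 6 had a positive log2 fold change that did not pass the test with all 11 tumours. The type I receptor chain Ifnar1 was at 110 ± 27.9 CPM (SD, n = 5) in translocation and 79.8 ± 15.6 CPM (SD, n = 6) in Rosa26 tumours, and Ifnar2 at 68.9 ± 30.6 and 46.4 ± 6.87 CPM. Ifngr1, the ligand-binding chain of the interferon gamma receptor, was at 104, 86.6, 89.6, 90.7 and 33.5 CPM in translocation tumours 1 to 5 and at 31.4, 46.5 and 63.0 CPM (lowest, median and highest) in Rosa26 tumours. Translocation tumours 1 to 4 all lay above the Rosa26 tumours and tumour 5 within them. Its log2 fold change was 0.78 (SE 0.30, edgeR adjusted p = 0.139), and 0.97 (SE 0.22, edgeR adjusted p = 0.0371) without tumour 5. Ifngr2, Il10rb and Ifnlr1 did not pass in either fit, with log2 fold changes of 0.32 (SE 0.34), 0.51 (SE 0.35) and -1.01 (SE 0.89).

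Jak1, Jak2 and Tyk2, the receptor-bound kinases, had log2 fold changes of -0.77 (SE 0.41), -0.65 (SE 0.27) and -0.37 (SE 0.37), and none passed the test. Translocation tumour 5 was the lowest of 11 tumours for all 3 kinases, with Jak1 at 38.2 CPM beside 137 to 398 CPM elsewhere.

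Of 134 other pathway genes examined, 103 passed the filter with all 11 tumours, and 1 of these was called lower (0.971%) and 0 higher, beside 1.56% and 1.14% of all genes. The 1 gene was Cxcl9, the interferon gamma-induced chemokine that draws activated T cells. It was at 0.322, 0, 0.795, 0.900 and 0.0515 CPM in translocation tumours 1 to 5 and at 1.11, 7.04 and 55.7 CPM (lowest, median and highest) in Rosa26 tumours. The groups did not overlap, but the 0 counts in translocation tumour 2 allow up to 1.49 CPM, above the lowest Rosa26 value. The top values were those of Rosa26 tumours 4 and 1, at 55.7 and 44.0 CPM. Its log2 fold change was -5.36 (SE 1.14, edgeR adjusted p = 0.0333), and -4.99 (SE 1.16, edgeR adjusted p = 0.04) without tumour 5. The call held in 6 of 11 fits that each left out 1 tumour and was lost without translocation tumour 1 or without Rosa26 tumour 3, 4, 5 or 6 (adjusted p up to 0.0784). The T cell gene Cd3e is part of the T cell receptor complex. It stood at 0 to 0.225 CPM in translocation tumours, where the 0 in translocation tumour 2 has the same limit of 1.49 CPM. In Rosa26 tumours it stood at 0.256 to 13.8 CPM, highest in Rosa26 tumours 1 and 4. Of 10 T and NK cell markers tested, 2 were called lower in translocation (Cd3e and Trac) and 0 higher. Others overlapped or leaned the other way: the cytotoxic granule genes Gzmb and Prf1 were highest in translocation tumour 1, at 12.5 and 15.5 CPM, and Cd4 in translocation tumour 3. The part of T cells in the Cxcl9 difference was not tested.

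The interferon gamma GTPases and targets had the lowest median of the pathway lists, -1.46 over 26 tested genes, beside -0.44 over 45 tested genes of the list of other interferon-stimulated genes. Without tumour 5 the medians were -1.33 and -0.25. Of the 26 genes, 12 were highest in Rosa26 tumour 1 and 8 in Rosa26 tumour 4, and 17 were lowest in translocation tumour 5. Unadjusted p-values under 0.05 with lower levels were found for 11 of these 26 (42.3%) and for 5 of those 45 (11.1%), where 10.4% of all genes had them. With sex as a covariate, 30 of the pathway genes were called lower (background 5.78%) and 1 higher (9.11%), and without tumour 5 in that fit 8 (background 0.694%) and 1 (0.126%). In the opposite direction, Ube2l6, the conjugating enzyme that attaches Isg15, was at 135, 31.7, 56.4, 43.4 and 6.28 CPM in translocation tumours 1 to 5 and at 12.1, 15.6 and 27.3 CPM (lowest, median and highest) in Rosa26 tumours. Translocation tumours 1 to 4 all lay above the Rosa26 tumours and tumour 5 below them. Its log2 fold change was 1.60 (SE 0.56, edgeR adjusted p = 0.113), and 1.89 (SE 0.40, edgeR adjusted p = 0.0294) without tumour 5. With Ifngr1 it made 2 pathway genes called higher without tumour 5, of 104 tested (1.92%, beside 1.68% of all genes), with Cxcl9 the 1 called lower (0.962%, beside 2.59%).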

How the data were processed

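RNA of 11 mouse tumours and 1 skeletal muscle was sequenced after ribosomal RNA depletion with a stranded kit, per the labels. The authors deposited whole-number counts per Ensembl gene, not normalized. Per the submitters' processing notes, the tools were STAR 2.7.5a, cutadapt, RSEM, featureCounts and DESeq2, and the build was mm10. Roles, annotation and strand setting: not given in the sources used here. Symbols, coordinates and exon lengths came from GENCODE, on the same build. The 33 members, the role groups and all lists were chosen with earlier results of these data known.

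From the counts, genotypes were compared in 11 tumours with edgeR 4.0.16 in R 4.3.3: filterByExpr with a minimum count of 10, TMM, robust quasi-likelihood tests and Benjamini-Hochberg adjustment over all genes at 0.05. The script was tested on simulated counts. Alternatives were DESeq2 1.42.0 (size factors, Wald test), limma 3.58.1 voom, other filters, sex as a covariate, samples summed and each tumour left out. Z-scores used log2 CPM with a prior count of 2. The sex of each tumour was inferred from Xist and Y-linked RNA because the labels lack it. Numbers of tumours follow the order of the samples.

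All members were named. Values in every translocation tumour, with the lowest, median and highest Rosa26 value, were given for those called with or without translocation tumour 5 and for the 2 with the smallest p in each role group, and promoters for up to 4 of these that hold an ISRE, by smallest p. Values of Isg15, Rsad2, Rtp4, Gbp2, Gbp3, Irf1 and Zbp1 given beyond this were chosen after they were seen. So were those of single T and NK cell, dendritic cell and melanocyte genes. For 1 of the other pathway genes, values are not reported here.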

Additional observations from a re-analysis of the deposited data

Results flagged for a closer look

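Within each genotype, the lowest and the highest tumour of every gene were compared with their neighbours by Dixon's ratio on log2 CPM. Of 66 groups examined, 5 held a tumour far from the others, where chance flags about 1 in 20 groups. The number of flags is not far from that rate, and 4 of the 5 lie in 1 tumour, so they are not independent. In translocation tumour 5, 4 genes lay far below the other 4 tumours: Oas2 at 0 CPM (0.0, from 0 counts), Oasl2 at 0.309 CPM, Irf9 at 9.32 CPM and Gbp5 at 0.154 CPM. In Rosa26 tumour 6, Oasl1 at 5.56 CPM lay far below the other Rosa26 tumours, the next of which was at 12.4 CPM.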

How the results depend on the processing

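The members called lower numbered 1 in all tumours and 3 with limma voom, 0 without a filter on low counts, 10 with sex as a covariate, 3 with sex as a covariate without translocation tumour 5 (chosen after seeing the data), and 0 with Rosa26 tumours 5 and 6 summed. Leaving out 1 tumour at a time gave 0 to 2. The genes called lower among all genes moved too: 266 in all tumours, 1415 with voom, 1203 by DESeq2's Wald test, 235 without a filter, 983 with sex as a covariate, 121 with it without translocation tumour 5, and 65 with Rosa26 tumours 5 and 6 summed. The 2 counts did not always move together. With sex as a covariate without translocation tumour 5, the members called lower rose from 1 to 3 while all genes called lower fell from 266 to 121. Pathway genes called lower, 1 in all tumours, numbered 14 by DESeq2's Wald test, 30 with sex as a covariate, 8 with sex as a covariate without translocation tumour 5, 0 when translocation tumours 2 and 5 were left out with Rosa26 tumour 4, 0 with Rosa26 tumours 5 and 6 summed, and 0 to 1 with 1 tumour left out. Those called higher, 0 in all tumours, numbered 2 by DESeq2's Wald test, 4 with voom, 1 with sex as a covariate with or without tumour 5, 1 without the 3 tumours together, and 0 to 2 with 1 tumour left out. Among all genes, 194 were called higher in all tumours, 1236 by the Wald test, 1262 with voom and 1551 with sex as a covariate. With that covariate but without tumour 5 there were 22, and without the 3 tumours together 281. Translocation members past 2-fold above muscle numbered 15 to 24 with 1 tumour left out. The median log2 fold change of the members stayed negative in all 21 alternatives, from -1.34 with sex as a covariate to -0.26 without the 3 tumours together. The call of Ddx58 was lost without a filter (edgeR adjusted p = 0.0585) and with Rosa26 tumours 5 and 6 summed (edgeR adjusted p = 0.0825). The causes were not tested.

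Signs reversed only for members that did not pass the test in all 11 tumours without a covariate. With sex as a covariate the log2 fold change was -0.81 for Isg15, -0.26 for Irf7 and -0.85 for Bst2, and without translocation tumour 5 in that fit -0.44 for Bst2 and 0.00 for Rsad2. With voom it was 0.24 for Ifit2, 0.51 for Irf1 and 0.00 for Xaf1. With translocation tumours 2 and 5 and Rosa26 tumour 4 left out together it was 0.01 for Zbp1, 0.11 for Ifit1, 0.50 for Ifit2, 0.32 for Ifit3, 0.25 for Irf1 and -0.09 for Bst2. With 1 tumour left out it ranged from -1.14 to 0.35 for Ifit1, from -0.82 to 0.12 for Ifit2, from -0.67 to 0.15 for Mx2, from -0.73 to 0.13 for Oasl1, from -0.62 to 0.09 for Irf1 and from -0.94 to 0.71 for Bst2. With samples summed it was 0.08 for Ifit2 and -0.75 for Bst2 (translocation tumours 2 and 5) and -0.01 for Bst2 (Rosa26 tumours 5 and 6). No paired analysis was possible because the replicate numbers only follow the order of the samples, and no number in the titles is shared between the genotypes compared. Depth limits the low members most, above all in translocation tumour 2.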
